A study of Homo sapiens with 6 samples.

Results

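Ago-RIP-seq separates the RNA of a lysate into a portion that comes down with Argonaute 2 (AGO2-IP) and a portion that stays behind (flow-through). The comparison described here is AGO2-IP against flow-through in MDA-MB-231 cells that had received the miR-99b-5p mimic, and it asks which gene families, transcript lengths and GC classes separate the bound from the unbound RNA. It rests on 4 of the 6 libraries of the series, 2 AGO2-IP and 2 flow-through, paired by their biological replicate number (BR1 and BR2). The labels and the paper do not say whether the 2 fractions of a replicate number came from the same lysate. A gene entered when its unstranded counts summed to at least 200 over these 4 libraries, which 13078 of 60708 genes did. Of these, 11747 are protein-coding.

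MDA-MB-231 is an established human triple-negative breast cancer cell line. All 4 libraries came from cells transfected with 25 nM of the mimic for 18 hours, so neither fraction is a sample without the mimic. The other 2 libraries of the series, 1 AGO2-IP and 1 flow-through labelled as control, come from cells given a scrambled oligonucleotide and are used only for side-by-side values. The IgG pull-down named in the design is not analysed here. Markers of the cell line were present in every mimic library: VIM, CD44, AXL, CAV1 and MSN lay between 59.0 and 1623 CPM (counts scaled to the size of the library) and FN1 reached 105 CPM. ESR1, PGR and CDH1 stayed below 1 CPM, ERBB2 lay between 37.7 and 106 CPM, and the leukocyte and hepatocyte markers PTPRC and ALB were at most 1.09 CPM. COL1A1, a fibroblast collagen that other cells also make, lay between 12.9 and 44.1 CPM, and the endothelial marker PECAM1 between 0.526 and 8.47 CPM.

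Argonaute proteins hold a small RNA such as a miRNA and use its seed, the bases near its 5′ end, to pair with sites that mostly lie in 3′ untranslated regions (3′UTRs) of mRNAs. A pull-down of AGO2 therefore holds mRNAs bound through the transfected mimic together with mRNAs bound through every other miRNA of the cell, and any RNA that adheres to the beads or the protein. The pull-down measures a share of RNA and not an amount per cell, so each ratio given here is relative to the other genes of the same library, and in bulk RNA fewer cells and less RNA per cell cannot be told apart.

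The mimic carries the sequence of mature miR-99b-5p, shown with its seed (bases 2 to 8) in capitals because the seed matches below were searched with it. It is 22 nucleotides (nt) long and lies at chr19:51692618-51692639 on the plus strand of GRCh38 (RefSeq annotation).
hsa-miR-99b-5p: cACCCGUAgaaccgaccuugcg
The 8mer match, the longest class of seed match, reads TACGGGTA on the mRNA. Shown next are 30 bases around it, with the 8mer in capitals, in the 3′UTRs of TARDBP, SRSF3 and CIRBP, the most abundant tested genes that hold one. The sites lie on the plus strand at chr1:11025324-11025353, chr6:36603892-36603921 and chr19:1274101-1274130 of GRCh38.
TARDBP: tactgcatagaTACGGGTAtttattttacc
SRSF3: aaaaggacagtTACGGGTAtaatatggcta
CIRBP: gctccatcccaTACGGGTAgctggctccag

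The counts on genes ran from 38022779 to 48544756 in the mimic libraries. The share of read pairs on no gene was 35.1% and 47.2% in the flow-through libraries and 21.9% and 21.4% in the AGO2-IP libraries. The flow-through libraries stood apart from each other. Their log2 difference had an SD of 1.44 across genes, against 0.84 between the AGO2-IP libraries, and it followed transcript GC content (Spearman's rho of -0.755 for BR1 minus BR2 over the 11747 protein-coding genes, which do not count as replicates), while the difference between the AGO2-IP libraries did not (rho of -0.006). Weighted by counts, the mean GC content of the protein-coding transcripts was 49.3% in the BR1 flow-through, 54.2% in the BR2 flow-through and 47.7% in each AGO2-IP. The classes and the main families are therefore given in both pairs, and every family in both pairs in the plot of families. The medians of the main families are also given without either flow-through library.

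A gene was called when edgeR's quasi-likelihood test, with the replicate number as a block, gave an adjusted p of at most 0.05 and its log2 fold change was 1 or more (called higher) or -1 or less (called lower). By this rule 4.6% of all genes tested were called higher in the AGO2-IP and 5.08% lower. Among protein-coding genes the shares were 4.69% and 4.59%. These are the shares against which each count below from this fit is to be read. Without the block the shares dropped to 0.245% and 0.413%, so the calls depend on the pairing. Fits that leave out a library have no block either, and their counts are to be read against their own shares. Medians moved less: without the block that of the SR genes described below went from 2.10 to 1.76, that of the ribosomal proteins from -1.59 to -1.71 and that of 7SL and 7SK from -8.89 to -9.57. Both AGO2-IP libraries lay above both flow-through libraries for 29.6% of the protein-coding genes and below both for 27.4%. The numbers of samples, 2 in each fraction, do not allow a permutation test to reach 0.05, and no test over genes was made of a class or family.

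Short mRNAs stood lower in the AGO2-IP and long mRNAs higher. Among the 152 protein-coding genes with a reference transcript under 600 nt, the median level, in CPM after TMM normalization, was 56.2 and 38.5 in the flow-through libraries and 17.6 and 21.2 in the AGO2-IP libraries. Both AGO2-IP medians lay below both flow-through medians. In this class 53 genes were called lower (34.9%) and 1 higher, and the median log2 fold change was -1.58. Among the 1140 genes with transcripts of 8000 nt and over, the median level was 37.2 and 29.2 CPM in the flow-through and 47.5 and 56.0 CPM in the AGO2-IP, the opposite order. Here 34 genes were called higher (2.98%) and 4 lower (0.351%), with a median log2 fold change of 0.57. The share called higher was below the 4.69% of all protein-coding genes. The difference of this class thus lay in its median and in its small share called lower.

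The classes between followed in order of length. The median log2 fold change was -1.16 at 600 to 1000 nt (459 genes), -0.62 at 1000 to 2000 nt (1972), -0.06 at 2000 to 4000 nt (4231) and 0.36 at 4000 to 8000 nt (3793). The share called lower dropped along this order, from 21.8% at 600 to 1000 nt to 1.03% at 4000 to 8000 nt. The share called higher did not follow it to the end, since it was largest at 2000 to 4000 nt (254 of 4231 genes). In terms of all counts on the tested protein-coding genes, transcripts under 600 nt took 4.10% and 2.22% of the flow-through libraries and 1.15% and 0.971% of the AGO2-IP libraries. Transcripts of 8000 nt and over took 10.2% and 10.9% against 12.04% and 15.003%.

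The length order was present in both pairs. From under 600 nt to 8000 nt and over, the class medians ran from -2.32 to 0.33 in the BR1 pair and from -0.89 to 0.81 in the BR2 pair. In the BR2 pair the shortest class was not the lowest, since the class at 600 to 1000 nt stood at -1.02. The median of transcripts of 4000 nt and over minus that of transcripts under 1000 nt was 1.68 on the log2 scale, with 1.76 in BR1 and 1.55 in BR2. Leaving out the BR1 or the BR2 flow-through left it at 1.69 and 1.71.

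**Figure D1:**
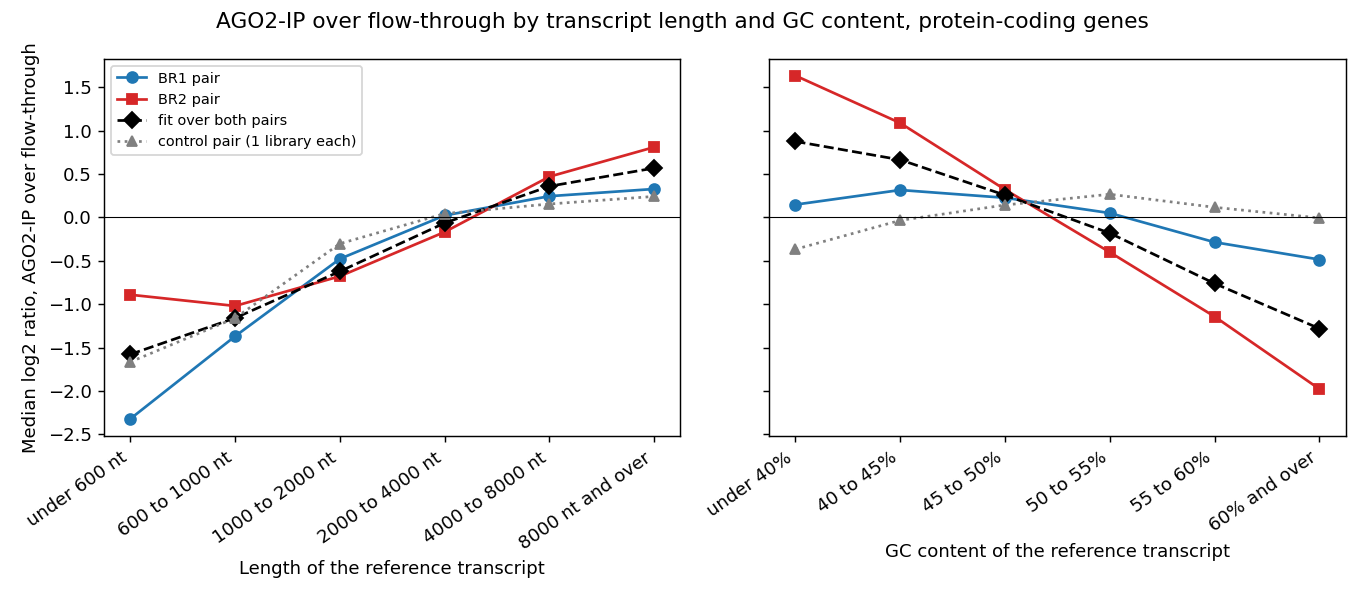
Median log2 ratio of AGO2-IP over flow-through (vertical axis) of tested protein-coding genes by length class (left, horizontal axis in nt) and GC class (right, in percent) of the reference transcript. Circles and squares are the BR1 and BR2 pairs, diamonds the fit over both and triangles the control pair; the length curves of both pairs rise from below -0.8 to above 0.3, whereas the GC curves differ in steepness between BR1 (0.15 to -0.49) and BR2 (1.63 to -1.98).

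In the fit, genes with AU-rich transcripts stood higher in the AGO2-IP and genes with GC-rich transcripts lower, but the size of this difference depended on the flow-through library. At a GC content under 40%, 215 of 2068 protein-coding genes were called higher (10.4%) and 10 lower, with a median log2 fold change of 0.88. At 60% and over, 9 of 1800 were called higher and 262 lower (14.6%), with a median of -1.28. The classes between them had medians of 0.66, 0.26, -0.18 and -0.76, in the order of their GC content. The pairs differed here: from the lowest to the highest GC class the medians ran from 0.15 to -0.49 in BR1 and from 1.63 to -1.98 in BR2. In BR1 the class under 40% (0.15) lay below those at 40 to 45% (0.32) and 45 to 50% (0.23), so the order did not hold at its AU-rich end. The difference between these classes was 2.16 in the fit, 0.63 in BR1 and 3.61 in BR2.

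The levels show where the pairs part. For genes under 40% GC the median level was 29.4 CPM in the BR1 flow-through, 9.76 in the BR2 flow-through, and 33.5 and 34.6 in the AGO2-IP libraries. For genes of 60% GC and over it was 20.9 and 56.1 CPM in the flow-through libraries and 15.1 and 14.8 in the AGO2-IP libraries. The AGO2-IP libraries were close to each other in both classes, and the BR2 flow-through was farthest from the rest. Without the BR2 flow-through the difference between the classes was 0.61, and the class under 40% GC had 80 genes called higher and 42 lower, where 2.89% and 4.21% of all genes were called. Without the BR1 flow-through it was 3.66. The difference between the outer classes had the same direction in both pairs, but no size can be given for it apart from the library used as reference.

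Length and GC content are related, since longer transcripts were poorer in GC (Spearman's rho of -0.305 across the 11747 genes), so each was also read within classes of the other. Within every GC class the transcripts under 1000 nt stood below those of 4000 to 8000 nt. At 60% GC and over the median went from -2.32 under 600 nt (28 genes) to -0.86 at 4000 to 8000 nt (345 genes), and under 40% it went from -0.20 at 600 to 1000 nt (25 genes) to 0.92 (917 genes). Within a length class, the lowest GC class stood above the highest in all 6 classes. The lowest cell of the grid was thus the short and GC-rich transcripts, and the highest the long and AU-rich ones. When each library's own trend on GC content was removed by a smooth curve, the length difference was 1.07.

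**Figure D2:**
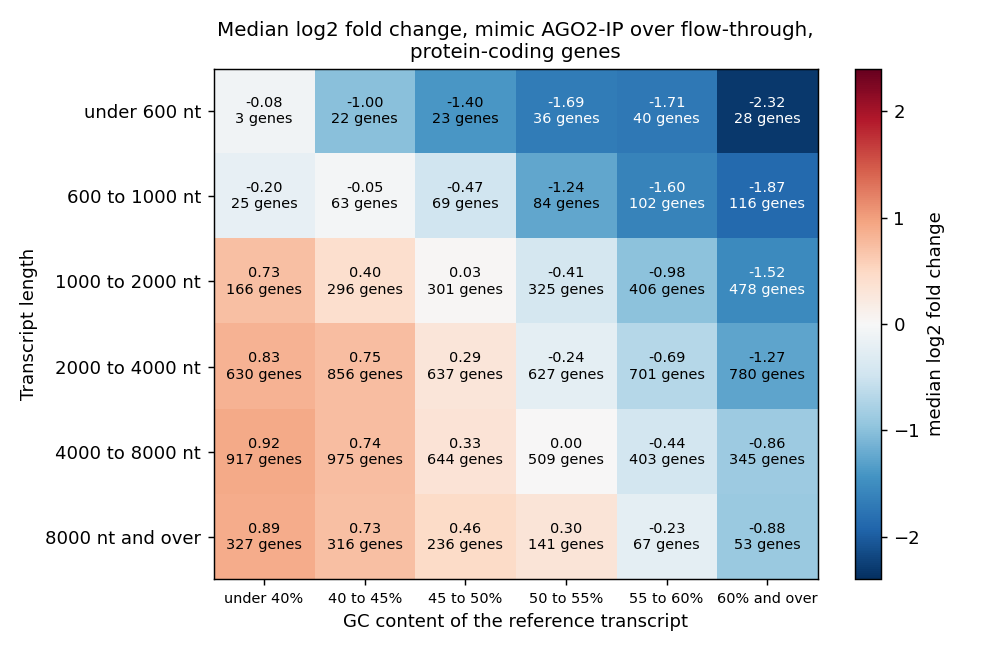
Median log2 fold change of AGO2-IP over flow-through from the edgeR fit, by length class (rows) and GC class (columns) of the reference transcript, with the number of protein-coding genes in each cell. Medians run from -2.32 for transcripts under 600 nt and 60% GC and over to 0.92 for those of 4000 to 8000 nt and under 40% GC.

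The coding sequence and the 3′UTR followed the whole transcript, and the 5′UTR did so less. Across the protein-coding genes, as a description without a test, Spearman's rho of the log2 fold change was 0.21 with the length of the coding sequence, 0.27 with that of the 3′UTR and 0.31 with that of the whole transcript. In BR1 coding length gave the larger value of these parts (0.28, against 0.15 for the 3′UTR) and in BR2 the 3′UTR did (0.31, against 0.12). For GC content rho was -0.52 both in the coding sequence and in the 3′UTR, with -0.17 and -0.20 in BR1 and -0.68 and -0.66 in BR2. The 5′UTR gave 0.10 for its length and -0.17 for its GC content, the latter at -0.04 in BR1 and -0.24 in BR2. The number of AUUUA motifs in the 3′UTR, the core of AU-rich elements that bind decay factors, gave 0.41, with 0.18 in BR1 and 0.49 in BR2, and this count shares its base composition with GC content.

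Among the families, which are sets of gene symbols with a common function, the hnRNPs stood highest. These proteins bind nascent RNA in the nucleus and act in splicing and export. Of 21 tested hnRNP genes 14 were called higher and none lower, 19 had both AGO2-IP libraries above both flow-through libraries (28.1% of all genes tested did), and the median log2 fold change was 2.90 (2.51 in BR1 and 3.22 in BR2). HNRNPA1 (ENSG00000135486.19, chromosome 12 from 54280193 to 54287088), the most abundant of them, had 28918 and 18279 counts in the flow-through and 349493 and 333706 in the AGO2-IP. Each AGO2-IP count was over 10 times each flow-through count, and the log2 fold change was 4.04 (standard error 0.61, edgeR adjusted p = 2.15e-08). HNRNPA1L3, a copy of HNRNPA1 on chromosome 16 that can share its reads, had 4.85, and its counts are uncertain for that reason. The lowest of the family was HNRNPUL1, at -0.84, which was not called. Without the BR1 flow-through the family median was 3.32 and without the BR2 flow-through 2.20. With all libraries but without the block, 6 of the 21 were called higher, where 0.245% of all genes were.

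The SR proteins, splicing factors that bind exonic enhancers, came next. Of 11 tested genes 6 were called higher and none lower, with a median of 2.10 (1.74 and 2.37 in the pairs). Without the BR1 flow-through the median was 2.60, and without the BR2 flow-through 1.62. SRSF3 had 15496 and 5745 counts in the flow-through and 58384 and 32926 in the AGO2-IP, so the fractions did not overlap, and its log2 fold change was 2.36 (standard error 0.685, edgeR adjusted p = 0.0135). SRSF1 had 3288 and 195 counts in the flow-through and 9636 and 8068 in the AGO2-IP. The BR2 flow-through was the lowest by far, and the log2 ratio was 1.74 in BR1 and 5.46 in BR2. SRSF11, at -0.18, and SRSF6, at 0.87, were not called.

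Other RNA-processing families were mixed. Of 48 DEAD and DEAH box helicases, enzymes that remodel RNA and RNA-protein complexes, 7 were called higher and none lower (median 0.75). DDX3X, which acts in translation initiation, had 16153 and 5583 counts in the flow-through and 41268 and 85622 in the AGO2-IP, a log2 fold change of 2.79. DHX15, which takes spliceosomes apart, had 3.36, while DDX49 (-1.79) and DHX37 (-1.56) were not called. The spliceosomal proteins (SNRP, LSM, SF3 and PRPF genes) had 5 of 53 called higher and 5 lower, with a median of 0.47. The 5 that were lower had reference transcripts with a median of 690 nt and the 5 that were higher of 2226 nt. SF3B5, a small subunit of the SF3b complex with a transcript of 690 nt, had 3954 and 1832 counts in the flow-through and 202 and 211 in the AGO2-IP (log2 fold change -3.56), whereas PRPF8, a core protein of the spliceosome with 7280 nt, had 1.43 and was not called.

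The mRNAs of the Argonaute machinery itself were measured too. AGO2, the gene of the protein that was pulled down, had 18093 and 12128 counts in the flow-through and 17921 and 22686 in the AGO2-IP, a log2 fold change of 0.59 that did not pass the test (edgeR adjusted p = 0.601). This is the mRNA and says nothing about the amount of protein in the pull-down. TNRC6A, a GW182 protein that links Argonaute to the deadenylases, was the called gene of the 7, at 3.39, with 2764 and 1097 counts in the flow-through and 12649 and 21718 in the AGO2-IP. AGO1 and AGO3 were near 0, at 0.12 and -0.09. Over the 7 Argonaute and TNRC6 genes the median was 1.12, at 0.42 in BR1 and 1.82 in BR2. In the fit 6 of them lay above 0. Both AGO2-IP libraries lay above both flow-through libraries for 5 of the 7, where 28.1% of all genes did so.

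In translation, cytosolic ribosomal proteins and aminoacyl-tRNA synthetases lay on opposite sides. Ribosomal protein mRNAs are short, abundant and carry a 5′ terminal oligopyrimidine tract that ties their translation to growth signals. Of 83 tested, 30 were called lower and 1 higher, and 59 had both AGO2-IP libraries below both flow-through libraries (28.5% of all genes did). The median was -1.59, with -2.32 in BR1 and -0.97 in BR2. RPS21, of the small subunit (chromosome 20 from 62387103 to 62388520), had 36468 and 13627 counts in the flow-through and 1321 and 1062 in the AGO2-IP, a log2 fold change of -4.09 (standard error 0.79, edgeR adjusted p = 5.01e-05). RPLP0, the most abundant of the family, had 164232 and 67548 counts against 24962 and 40302, a log2 fold change of -1.59 that did not pass the test (edgeR adjusted p = 0.0883). RPL23, the 1 called higher, had 2.11. The family took 5.98% and 2.75% of the tested counts in the flow-through libraries and 1.52% and 1.47% in the AGO2-IP libraries. Without the BR1 flow-through the median was -1.07, and without the BR2 flow-through -2.15. With all libraries but without the block, 6 were called lower and none higher, where 0.413% of all genes were called lower.

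The 20 cytosolic aminoacyl-tRNA synthetases, which charge tRNAs with amino acids, had 5 called higher and none lower, with a median of 1.05 (1.04 in BR1 and 1.08 in BR2). RARS1, the arginyl-tRNA synthetase, had 4107 and 624 counts in the flow-through and 22239 and 16184 in the AGO2-IP, a log2 fold change of 3.71 (standard error 0.80, edgeR adjusted p = 0.000461). HARS1 (3.07), LARS1 (2.52), NARS1 (2.44) and TARS1 (1.93) were the other called genes. VARS1, at -1.55, had the lowest value and was not called. Initiation and elongation factors were spread around 0, with 4 of 63 called higher and 2 lower and a median of 0.30. EEF1A1, the elongation factor that delivers tRNAs to the ribosome, had 389934 and 203976 counts in the flow-through and 466886 and 207124 in the AGO2-IP. Its fractions overlapped, with a log2 fold change of 0.28, while EIF4A2, an RNA helicase of initiation, had 3.58.

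Genes of the mitochondrion lay on both sides. Of 77 nuclear-encoded respiratory chain subunits, 14 were called lower and 6 higher, with a median of -0.56. The pairs were on opposite sides, at -1.27 in BR1 and 0.26 in BR2, so no direction can be given for the family. The 14 lower subunits had reference transcripts with a median of 740.5 nt and the 6 higher ones of 2684 nt. NDUFB11 of complex I had -3.95, with 2975 and 2954 counts in the flow-through and 175 and 172 in the AGO2-IP. ATP5F1A, the alpha subunit of ATP synthase, had 2.53, with 19563 and 15606 counts against 89115 and 93337. Mitochondrial ribosomal proteins had 11 of 76 called lower and none higher, with a median of -0.11, at -0.68 in BR1 and -0.19 in BR2. The import proteins TIMM and TOMM had 1 of 23 in each direction. The 15 tested genes encoded in mitochondrial DNA had no called member. Their median was -3.63 in BR1 and 1.36 in BR2, and MT-CO1, a subunit of cytochrome oxidase, had 25154 and 2412 counts in the flow-through and 1221 and 8908 in the AGO2-IP. The AGO2-IP was the lower library in one pair and the higher in the other.

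**Figure D3:**
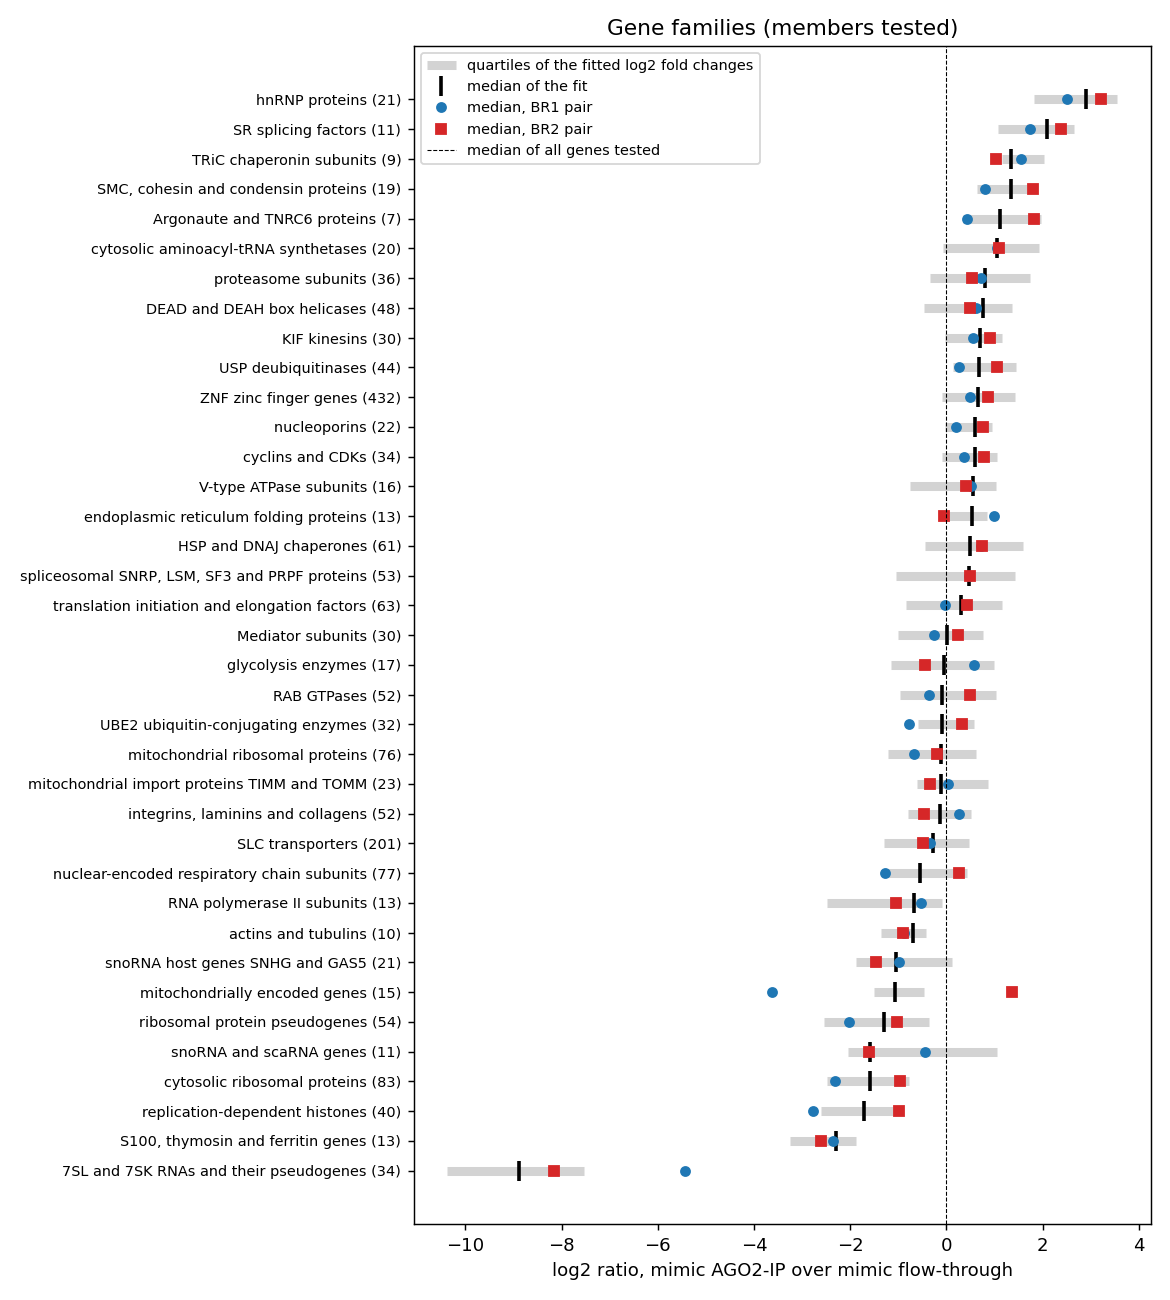
Log2 ratio of AGO2-IP over flow-through (horizontal axis) in 37 gene families, with the number of tested members in brackets. Grey bars are the quartiles and black ticks the median of the fitted log2 fold changes, circles the BR1 median and squares the BR2 median; hnRNP and SR genes stand highest at 2.90 and 2.10, 7SL and 7SK RNAs lowest at -8.89, and mitochondrially encoded genes lie on opposite sides of 0 in the pairs.

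Among chaperones and the degradation machinery, more genes were called higher than lower in TRiC, the proteasome and the HSP and DNAJ genes. TRiC is the chaperonin that folds actin and tubulin. Of its 9 tested genes 3 were called higher (CCT6A, CCT8 and CCT2), and the other 6 lay between 0.59 and 1.97. Both AGO2-IP libraries lay above both flow-through libraries for 8 of the 9, where 28.1% of all genes did so. The median was 1.35, with 1.56 in BR1 and 1.04 in BR2. CCT6A had 13017 and 5267 counts in the flow-through and 78381 and 50047 in the AGO2-IP, a log2 fold change of 3.06 (edgeR adjusted p = 0.00088). Of 36 proteasome subunits 6 were called higher and 1 lower, with a median of 0.80. PSMC6, an ATPase of the regulatory particle, had 3031 and 892 counts in the flow-through and 31056 and 17464 in the AGO2-IP (log2 fold change 3.97). PSMB3, a subunit of the catalytic core with a transcript of 762 nt, was the 1 lower gene, at -2.78.

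Of 61 HSP and DNAJ chaperones 7 were called higher and 1 lower, with a median of 0.48. HSPD1, the mitochondrial chaperonin, had 11499 and 8845 counts in the flow-through and 104375 and 162860 in the AGO2-IP. The fractions did not overlap, and the log2 fold change was 3.83 (standard error 0.67, edgeR adjusted p = 3.12e-06). HSP90AB1, a cytosolic HSP90, had 1.86 and was called. In the endoplasmic reticulum the disulfide isomerase PDIA6 had 3.27, from 1620 and 1433 counts in the flow-through to 15341 and 11541 in the AGO2-IP, and 2 of 13 folding genes were called higher. The ubiquitin-conjugating UBE2 genes had 1 of 32 called higher and 2 lower, among the latter UBE2S (-2.25), which extends ubiquitin chains for the anaphase-promoting complex. Of 44 USP deubiquitinases 3 were called higher and none lower (median 0.67).

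Families of chromatin and transcription lay far apart. The zinc finger genes with ZNF symbols, mostly DNA-binding repressors, had 38 of 432 called higher (8.80%) and 8 lower (1.85%), with a median of 0.66, at 0.49 in BR1 and 0.86 in BR2. The 38 had reference transcripts with a median GC content of 37.3% and the 8 of 63.9%. ZNF92 (chromosome 7 from 65373799 to 65401136) had 160 and 29 counts in the flow-through and 2266 and 6959 in the AGO2-IP. Its log2 fold change of 5.95 (standard error 0.96, edgeR adjusted p = 2.33e-07) was the largest increase among protein-coding genes called higher with at least 200 counts in both AGO2-IP libraries. Its size differed between the pairs, at 3.99 in BR1 and 7.92 in BR2. ZNF217, the most abundant of these genes, had 1.98 and was not called (edgeR adjusted p = 0.0575).

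Replication-dependent histone mRNAs end in a stem-loop in place of a poly(A) tail and are under 1000 nt long but for 1 of the 40 tested. Of the 40, 15 were called lower and none higher, with a median of -1.70, at -2.77 in BR1 and -0.98 in BR2. H4C2, the most abundant, went the other way, with 33987 and 26431 counts in the flow-through and 129772 and 35910 in the AGO2-IP, a log2 fold change of 1.33 that did not pass the test. Histone genes of one type are close copies, so reads can be split or lost among them. Of the 13 RNA polymerase II subunits 5 were called lower and 1 higher. The 1 higher was POLR2B, the second largest subunit, at 2.81, with 5202 and 2179 counts in the flow-through and 18892 and 24393 in the AGO2-IP. The small subunit POLR2J was at -3.64, with 2576 and 2802 counts against 151 and 253. The cohesin, condensin and SMC genes, which shape chromosomes, had long and AU-rich transcripts (median 5949 nt and 40.2% GC) and 2 of 19 called higher, STAG2 at 2.47 among them, with a median of 1.33.

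The lowest protein-coding family was that of S100, thymosin and ferritin genes, which encode small calcium-binding, actin-binding and iron-storing proteins. Of 13 tested, 8 were called lower and 1 higher, and 12 had both AGO2-IP libraries below both flow-through libraries. Of all genes tested 28.5% did so, and of protein-coding genes under 1000 nt 57.4%. The median was -2.29, with -2.37 in BR1 and -2.61 in BR2. TMSB4X, thymosin beta 4 (chromosome X from 12975110 to 12977227), had 115940 and 82622 counts in the flow-through and 5137 and 7257 in the AGO2-IP, a log2 fold change of -3.86 (standard error 0.70, edgeR adjusted p = 8.62e-06). FTL and FTH1, the ferritin chains, were at -1.92 and -3.36 and were both called. S100A11 was the exception, called higher at 2.62, with a transcript of 563 nt.

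Metabolic and cytoskeletal families had called members on both sides or few. Among 17 glycolysis genes 2 were called lower and 1 higher. GAPDH (chromosome 12 from 6534512 to 6538374) had 100954 and 46215 counts in the flow-through and 6095 and 6739 in the AGO2-IP, a log2 fold change of -3.27 (standard error 0.70, edgeR adjusted p = 0.000402). LDHA, lactate dehydrogenase, had 89099 and 26600 counts against 251853 and 170578, a log2 fold change of 2.23. The fractions did not overlap for either enzyme, and the order was opposite. ACTB had 310080 and 411350 counts in the flow-through and 188900 and 396463 in the AGO2-IP, and its fractions overlapped (-0.24). The alpha tubulin TUBA1B had -2.13 and was called. Of 201 SLC transporters 4 were called higher and 7 lower, of 52 RAB GTPases 4 and 3, and of 30 KIF kinesins none in either direction (median 0.71). RAB1A, which acts between endoplasmic reticulum and Golgi, had 6041 and 752 counts in the flow-through and 42417 and 29792 in the AGO2-IP (log2 fold change 4.20). Of 34 cyclins and CDKs 2 were called higher and 1 lower; CCNE1, the cyclin of S-phase entry, had 2.69 and CCND1, of the G1 phase, 0.16. The integrin ITGB1 had 2.56, and 2 of 52 integrins, laminins and collagens were called higher and 1 lower.

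**Figure D4:**
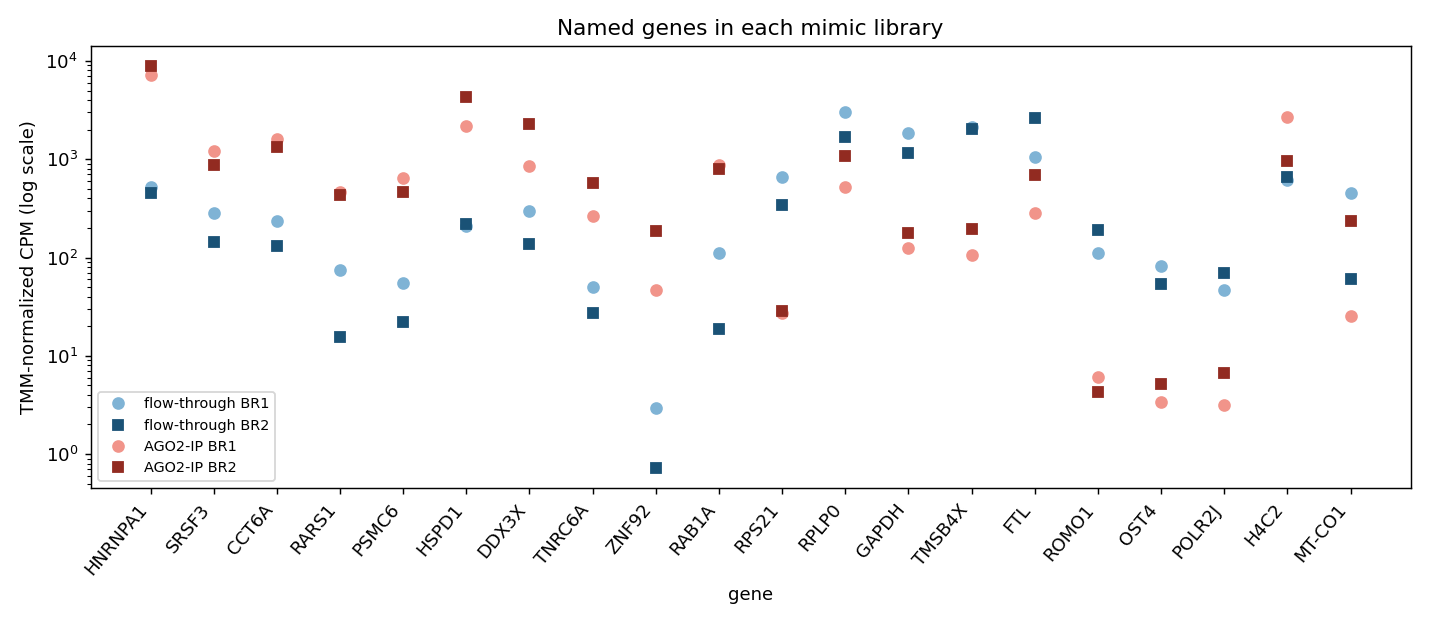
TMM-normalized CPM (vertical log axis) of 20 named genes in each mimic library, flow-through in blue and AGO2-IP in red, circles for BR1 and squares for BR2. For HNRNPA1 to RAB1A both red points lie above both blue points, for RPS21 to POLR2J both lie below, and for MT-CO1 the order differs between the pairs.

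The calls of several families rested on the block. Without it edgeR called none of the 11 SR genes, 20 synthetases, 9 TRiC genes and 40 histones. Of these, 6, 9, 5 and 25 had an unadjusted p under 0.05, as had 3107 of all 13078 genes. DESeq2 with the block called 7, 8 and 4 higher and 20 histones lower, where it called 10.2% of all genes higher and 10.6% lower. Of the S100, thymosin and ferritin genes 2 were called lower without the block, and of the ZNF genes 4 were called higher. Without the BR1 flow-through the medians were 1.03 for the synthetases, 1.35 for TRiC and 0.96 for the ZNF genes. Those of the histones and of the S100, thymosin and ferritin genes were then -1.15 and -2.48. Without the BR2 flow-through these 5 medians were, in the same order, 0.96, 1.48, 0.46, -2.18 and -2.46.

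Families were also set against protein-coding genes of the same length and GC class. The median of the hnRNP genes lay 2.35 above that of such genes, and that of the SR genes 1.44, TRiC 1.23, the aminoacyl-tRNA synthetases 1.01 and the proteasome 0.93 above. The S100, thymosin and ferritin genes lay 1.05 below (-1.05) and the ribosomal proteins 0.95 below (-0.95). The histones (0.04), the respiratory chain subunits (0.03) and the RNA polymerase II subunits (-0.01) lay at the level of their classes. Each class includes the family's own genes, which draws the value towards 0 where a family fills much of a small class. The 40 histones had a median of 486 nt, and the class under 600 nt held 152 genes. Their value therefore cannot tell whether they differ from other short genes, and those of other families of short transcripts are limited in the same way. The ZNF genes lay 0.32 above and the cohesin, condensin and SMC genes 0.61 above. These are differences of medians and were not tested.

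Outside protein-coding genes, the 7SL and 7SK RNAs and their pseudogenes were the lowest group. 7SL is the RNA of the signal recognition particle and 7SK holds back the elongation factor P-TEFb. All 34 tested members were called lower, and 12 of them had 0 counts in both AGO2-IP libraries. The median log2 fold change was -8.89 in the fit, and -7.69 when these 12 were put at the bound that 3 counts over both AGO2-IP libraries give. RN7SL1 (chromosome 14 from 49586580 to 49586878) had 5379433 and 12493026 counts in the flow-through and 47852 and 39314 in the AGO2-IP, a log2 fold change of -7.42 (standard error 0.48, edgeR adjusted p = 8.91e-50). The group took 11.7% and 26.3% of the counts on tested genes in the flow-through libraries and 0.104% and 0.105% in the AGO2-IP libraries. The copies are near identical, so reads from 7SL itself can be counted on its pseudogenes, and the members are not independent. The median was -5.43 in BR1 and -8.16 in BR2, so the fitted -8.89 lay below both pairs. Without the BR1 flow-through it was -10.3, and without the BR2 flow-through -7.17. With all libraries but without the block 27 of the 34 were called lower, and by DESeq2 with the block 24.

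Long noncoding RNAs had 16 of 789 called higher and 36 lower, with a median of -0.53 (-0.50 in BR1 and -0.45 in BR2). The snoRNA host genes and GAS5, spliced RNAs whose introns give snoRNAs and of which several begin with a 5′ terminal oligopyrimidine tract, had 4 of 21 called lower and none higher, with a median of -1.05. SNHG29 had 15178 and 10694 counts in the flow-through and 2205 and 1498 in the AGO2-IP (log2 fold change -2.67). Ribosomal protein pseudogenes had 18 of 54 called lower and none higher (median -1.30), next to the -1.59 of their parent genes, from which reads can be placed on them. Processed pseudogenes as a whole had 21 of 171 called higher and 27 lower.

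Among called protein-coding genes with at least 200 counts in both libraries of the higher fraction, the 6 largest increases were those of ZNF92, MRFAP1L1, HNRNPA1L3, ZNF680, DLD and ZNF254. MRFAP1L1 (chromosome 4 from 6707701 to 6709865) had 1908 and 719 counts in the flow-through and 34055 and 35835 in the AGO2-IP (log2 fold change 5.04, standard error 0.80). DLD, the dehydrogenase shared by the 2-oxoacid dehydrogenase complexes, had 3418 and 946 counts against 30763 and 38569 (4.401). Under the same filter the 6 largest decreases were those of ROMO1, BBLN, RPS21, OST4, NDUFB11 and PPDPF, between -4.84 and -3.91. All 6 have reference transcripts under 1000 nt, from 358 nt in RPS21 to 827 nt in PPDPF, whereas the 6 increases have transcripts from 1578 to 4089 nt. ROMO1, an inner-membrane protein of the mitochondrion (chromosome 20 from 35699272 to 35700984), had 6126 and 7737 counts in the flow-through and 294 and 160 in the AGO2-IP. OST4, the smallest subunit of the oligosaccharyltransferase, had 4474 and 2179 counts against 162 and 194. For each of these 12 genes the fractions did not overlap. They were chosen as the largest changes with the same sign in both pairs, so this follows largely from the choice.

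The seed matches of miR-99b-5p were searched on the sense strand of the 3′UTRs of 11710 protein-coding genes as ACGGGT (6mer), ACGGGTA (7mer-A1), TACGGGT (7mer-m8) and TACGGGTA (8mer). Each gene was counted once, under its longest match. An 8mer was held by 37 genes (0.316%) and any match by 783 (6.69%). Among the 37 genes with an 8mer 4 were called higher (10.8%) and none lower. Both AGO2-IP libraries lay above both flow-through libraries for 22 of them (59.5%). Among genes without a match these shares were 4.77% and 29.5%. In the class of 4000 to 8000 nt and 40 to 45% GC, which holds the medians of the 8mer genes, they were 4.92% and 51.6%. The median log2 fold change of the 8mer genes was 0.89, with 0.69 in BR1 and 0.96 in BR2. Genes with a 7mer-m8 had 4 of 120 called higher and none lower and a median of 0.45 (0.30 and 0.51 in the pairs). Genes with a 7mer-A1, a 6mer or no match had medians of 0.02, 0.01 and 0.04. Genes with an 8mer had longer transcripts of lower GC content (medians 5744 nt and 42.9%) than genes without a match (3374 nt and 47.8%). Set against protein-coding genes of the same length and GC class, the 8mer genes lay 0.34 above and the 7mer-m8 genes 0.11 above, which was not tested. In the group without a match 521 of 10927 were called higher and 525 lower.

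The 3 genes whose sites are printed above show the range. TARDBP, an RNA-binding protein that acts in splicing, had 7970 and 3995 counts in the flow-through and 45256 and 60447 in the AGO2-IP, a log2 fold change of 3.35 (standard error 0.72, edgeR adjusted p = 0.000379). SRSF3 is given above with 2.36. CIRBP, a cold-inducible RNA-binding protein, had 4925 and 7052 counts against 21635 and 10884, a log2 fold change of 1.52 that did not pass the test (edgeR adjusted p = 0.158), although both AGO2-IP libraries lay above both flow-through libraries. SRSF3 and TARDBP also belong to the long AU-rich transcripts, at 39.4% and 40.5% GC, and CIRBP does not, at 57.1%.

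Read within classes, the difference was smaller in some. With 8mers and 7mers pooled, the median of genes with a match against genes without was 0.94 against 0.87 under 40% GC, 1.03 against 0.66 at 40 to 45%, 0.49 against 0.26 at 45 to 50% and 0.19 against -0.20 at 50 to 55%. At 55 to 60% the values were -0.69 against -0.78 and at 60% and over -0.56 against -1.29. The genes with a match stood above the others in all 6 GC classes. By 3′UTR length they did not. They stood lower at 500 to 1000 nt, at -0.68 (20 genes) against -0.14, at 1000 to 2000 nt, at -0.02 (41 genes) against 0.10, and at 4000 nt and over, at 0.43 (102 genes) against 0.48. They stood higher at 2000 to 4000 nt, at 0.58 (93 genes) against 0.41, and under 500 nt, at 0.63 against -0.67 with 4 genes that held a match. A match is a description of the letters, and no count here says that the site is used.

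**Figure D5:**
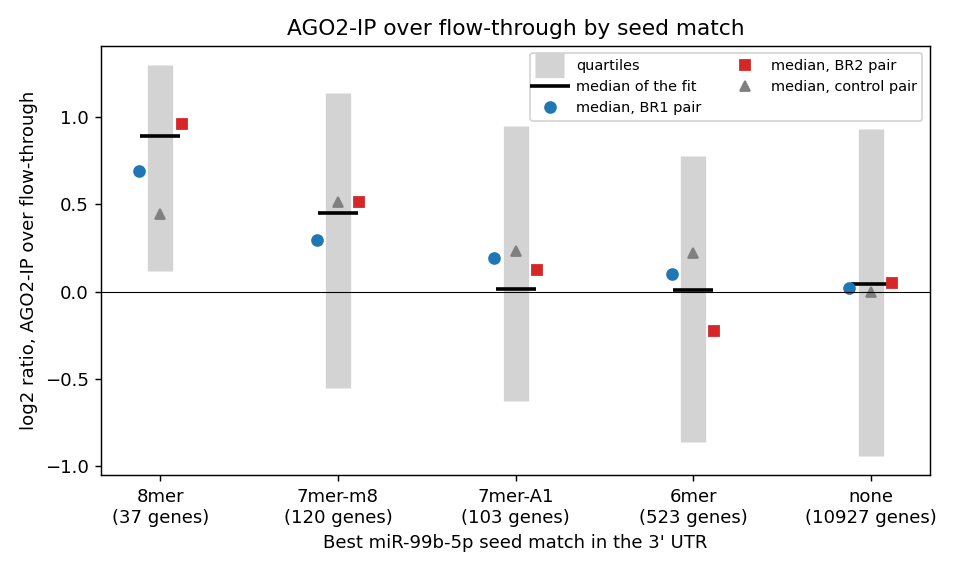
Log2 ratio of AGO2-IP over flow-through (vertical axis) by the best miR-99b-5p seed match in the 3′UTR (horizontal axis, with the number of genes). Grey bars are quartiles and black lines the median of the fit, circles BR1, squares BR2 and triangles the control pair; the fitted median is 0.89 for the 8mer, 0.45 for the 7mer-m8 and between 0.01 and 0.04 for the rest.

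The control libraries are labelled as 1 of each fraction, whereas a supplementary table of the study names both as control replicates without a fraction. If the labels do not hold, the control values here and in the plots are not ratios of AGO2-IP over flow-through. With the labels followed, they give the ratio without the mimic and without a replicate check, so no test was made. They differ from the mimic libraries in depth (7772149 and 8076375 counts on genes) and in the share of read pairs mapped to several places (73.7% and 76.7%, against at most 19.2% in a mimic library), so the mimic and these differences between libraries cannot be told apart. Of 8245 genes after TMM normalization, 15.9% stood at a log2 ratio of 1 or more and 18.1% at -1 or less. The median was -1.67 under 600 nt and 0.24 at 8000 nt and over, so the length order was there too. By GC content it was -0.37 under 40% and -0.01 at 60% and over, which is not the order of the mimic pairs. The ribosomal proteins had -2.01 and the S100, thymosin and ferritin genes -2.396, beside the mimic values of -1.59 and -2.29. The hnRNP genes had 0.24, against 2.90, and the SR genes 0.45, against 2.10. TRiC had 1.06 against 1.35. Genes with an 8mer had a control median of 0.45 and genes with a 7mer-m8 of 0.51, above the -0.00 of genes without a match. Scaled by library size alone, the control median of all genes moved from 0.01 to 0.91, so the side of 0 on which a control value lies depends on the scaling, while the differences between classes do not.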

How the data were processed

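Per the study's methods, RNA was sequenced as read pairs and aligned to GRCh38. The flow-through libraries are known from the sample labels, while the methods describe sequencing of RNA from the AGO2 pull-down. The submitters' processing notes name FastQC 0.11.9, cutadapt 3.5, STAR 2.7.11b and DESeq2; the Ensembl release is not given in the sources used here. The authors deposited raw counts of uniquely mapped read pairs per gene, of which the unstranded column was used without the rows that name no gene. Counting unique pairs alone lowers genes with near-identical copies. Of 60708 identifiers 60463 were matched to GENCODE release 44, the source of names, biotypes, coordinates and reference transcripts (12 tested genes had no match). Genes were tested with edgeR 4.0.16 in R 4.3.3 (TMM, glmQLFit and glmQLFTest, replicate number as a block, Benjamini-Hochberg adjustment over all 13078 genes). The standard error is the log2 fold change divided by the square root of F, and ratios within a pair use a prior count of 2. The pairing comes from the replicate numbers in the labels; deviations of same-numbered libraries correlated across genes (Pearson's r of 0.324, Spearman's rho of 0.236). The study's methods call the biological replicates independent.

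The 37 families are symbol patterns. Genes were named by rule: the 6 largest changes each way among called protein-coding genes with 200 counts in both libraries of the higher fraction, the most abundant and the most significant called member of each family, the most abundant gene of each corner of length and GC, and the 3 most abundant genes with an 8mer. Other members are named to show a family's extremes or its few called genes, and were chosen after their values were seen. Members and lists were chosen with earlier results of these data known. The alternatives were no block, other scalings and count filters, DESeq2 1.42.0, the strand columns, removal of each library's GC trend (lowess, span 0.2), each library left out, an adjusted p of 0.01, other seed matches, the longest transcript and other class bounds. Values within each pair and counts without each flow-through library were added after seeing the data.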

Additional observations from a re-analysis of the deposited data

Results flagged for a closer look

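For 10 groups both mimic pairs lay on one side of 0 and the control pair on the other, over the genes with a value in both. The control is by its labels a single library of each fraction, which a supplementary table of the study does not give, so these differences were not tested, and with library size in place of TMM the control medians moved up by about 0.9 (from 0.01 to 0.91 over all genes), which is printed beside each. The median log2 ratios are given for BR1, BR2 and control, in that order. The spliceosomal SNRP, LSM, SF3 and PRPF genes had 0.47, 0.60 and -0.79, the last 0.10 by library size. The SMC, cohesin and condensin genes had 0.79, 1.80 and -0.22, the last 0.68 by library size. The HSP and DNAJ chaperones had 0.99, 1.01 and -0.036, the last 0.86 by library size. The V-type ATPase subunits had 0.52, 0.52 and -0.00058, the last 0.90 by library size. The RAB GTPases had 0.12, 0.72 and -0.35, the last 0.56 by library size. The TIMM and TOMM genes had 0.28, 0.05 and -0.072, the last 0.83 by library size. Over all tested members of these families, however, the mimic pairs lay on opposite sides of 0. The 52 RAB GTPases had -0.37 in BR1 and 0.50 in BR2, and the 23 TIMM and TOMM genes 0.03 and -0.34. No direction can be given for either family. The SLC transporters had -0.28, -0.47 and 0.074, the last 0.98 by library size. Protein-coding genes under 40% GC had 0.33, 1.89 and -0.37, the last 0.53 by library size, and those at 40 to 45% GC had 0.45, 1.31 and -0.034, the last 0.87 by library size. Genes at 55 to 60% GC had -0.17, -1.01 and 0.12, the last 1.02 by library size. In all of these but the SLC transporters and the class at 55 to 60% GC the control median was above 0 by library size, as in the mimic pairs; in those 2 it was above 0 under both scalings.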

How the results depend on the processing

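The number of genes called depended strongly on the fit, and some medians did too. Without the BR1 flow-through the median of the mitochondrially encoded genes went from -1.06 to 0.75. That of the respiratory chain subunits went from -0.56 to 0.22. Against 601 higher and 664 lower with the replicate block, the fit without the replicate block called 32 and 54 (all among the former), DESeq2 with the block 1339 and 1392, the fit with each library's GC trend removed 1804 and 1632, and an adjusted p of 0.01 left 232 and 227; with a summed count of 10 as filter 312 were lower, the share of calls that were higher was 65.6% and the median of the genes tested here moved to 0.36. That share was 37.2% without the block and 40.9% with 200 counts in both libraries of 1 fraction. Leaving out 1 library, without the block, gave 2 to 2458 higher and 21 to 2416 lower, the lowest without the BR2 AGO2-IP and the highest without the BR1 flow-through. The fit without the replicate block kept the direction of the length, GC and 8mer differences and of the medians of the 9 main families. The length difference of 1.68 was 1.47 with a summed count of 10, 1.84 with 200 counts in both libraries of 1 fraction, 1.07 with the GC trend removed and 1.35 with bounds that give classes of equal size. The aminoacyl-tRNA synthetase median of 1.05, whose pairs lie close, was 1.08 by library size alone, 1.42 with a summed count of 10, 0.92 with 200 counts in both libraries, 0.997 with protein-coding genes alone, 0.89 and 0.86 with the strand columns and 0.98 with the GC trend removed. With a summed count of 10 the medians of TRiC, of the S100, thymosin and ferritin genes and of 7SL and 7SK were 1.72, -1.53 and -5.75, and the 8mer difference of 0.85 was 1.04. The S100, thymosin and ferritin median was also -2.54 with 200 counts in both libraries and -2.03 with strand column 4. With the GC trend removed the hnRNP, SR, ZNF and S100, thymosin and ferritin medians were 2.31, 1.53, 0.40 and -2.10 and the 8mer difference 0.45, and FLNA reversed to 1.08 (edgeR adjusted p = 0.018). The 8mer difference was 0.062 for any match against none and 0.51 for an 8mer anywhere in the transcript. Where a library or a pair was left out, SR ran from 1.47 to 2.60, hnRNP from 2.20 to 3.32, ZNF from 0.46 to 0.96, TRiC from 1.04 to 1.74, the synthetases from 0.96 to 1.09, the S100, thymosin and ferritin genes from -2.61 to -2.29, 7SL and 7SK from -10.3 to -5.43 and the 8mer difference from 0.67 to 0.99. With the same libraries or pairs left out, the ribosomal proteins ran from -2.32 to -0.97 and the histones from -2.77 to -0.98. The GC difference of 2.16 then ran from 0.61 to 3.66, and it was 0.078 with the GC trend removed. The longest annotated transcript in place of the reference transcript left the length, GC and 8mer differences within the spread between pairs. The cause of these shifts was not tested. At 2 libraries per fraction, 3493 genes had an unadjusted p under 0.05 with the block and 3107 without.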

Other observations

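Among the genes that were named for the corners of length and GC content, PGK1, a glycolysis enzyme with a reference transcript of 4812 nt and 42.8% GC, had 36862 and 42181 counts in the flow-through and 81679 and 61634 in the AGO2-IP, and its log2 fold change of 0.99 did not pass the test. FLNA, an actin crosslinker with 8507 nt and 62.3% GC, had 92188 and 204853 counts in the flow-through and 127721 and 114719 in the AGO2-IP. Its AGO2-IP counts lay between those of the flow-through libraries, at 0.66 in BR1 and -0.74 in BR2. Small nuclear RNA genes had 11 of 24 called lower and 4 higher. Of 11 snoRNA and scaRNA genes 1 was called higher and 1 lower, and 7 lay below 0. Their median was -1.59, at -0.44 in BR1 and -1.61 in BR2. The 1 higher was SNORD13, a small nucleolar RNA, at 3.48, with 86 and 13 counts in the flow-through and 467 and 267 in the AGO2-IP.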
